A study of Mus musculus with 6 samples.

Results

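The 9 genes described here encode enzymes of de novo ceramide synthesis together with Gdf1, whose coding sequence lies in the last exons of the Cers1 transcript. The members are Sptlc1, Sptlc2, Cers1, Cers2, Cers4, Cers5, Cers6, Degs1 and Gdf1, out of 17920 genes listed. They were chosen by name after the counts and TPM of the same 6 libraries had been seen, so their differences between groups are given as a description without a test. Gdf1 and Cers1 share transcript sequence and were taken as the sum of their counts, which left 8 units.

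RNA was measured in cells cultured from E13.5 mouse cortex, 3 libraries per group. The WT group received a control lentivirus and the KD group a lentivirus with an shRNA against Ybx1, an RNA-binding protein that reads the m5C mark. Both were then selected with puromycin for infected cells. The labels name only the cortex, and the series text calls the loss of Ybx1 a deletion, but the methods describe infected cultures. In cultures of mixed cells, a smaller share of a cell type and less RNA per cell cannot be told apart.

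Ceramide is the central lipid of the sphingolipid pathway and the precursor of sphingomyelin and of the gangliosides that are abundant in neurons. Serine palmitoyltransferase, built from Sptlc1 and Sptlc2, makes the sphingoid base, a ceramide synthase (Cers) adds a fatty acid, and Degs1 then introduces the double bond that turns dihydroceramide into ceramide. The ceramide synthases differ in the fatty acid they prefer: Cers1 uses stearoyl-CoA and is known from neurons, Cers2 very long chains, Cers5 and Cers6 palmitoyl-CoA. Gdf1 is unrelated in function. It is a secreted ligand of the TGF-beta family that acts with Nodal in left-right patterning of the embryo.

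Depth was nearly equal, with 16294635 to 16497505 estimated counts per library. Ybx1 stood at 10189, 9963 and 10484 counts in the WT libraries and at 1635, 1511 and 2620 in the KD libraries, so each KD library lay below every WT library, and KD 3 kept the most, 25.3% of the WT mean against 15.6% and 14.7%. Summed TPM (transcript abundance on a scale of 1000000, a level per length) of 10 neuron markers was 5213 to 5870 in WT and 5040 to 5827 in KD libraries. Of these 10 markers, 1 was called higher and 2 lower, so the overlapping sum hides changes in both directions. Summed TPM of 4 intermediate progenitor markers was 43.0 to 55.2 in WT and 97.3 to 121.7 in KD libraries, and 4 of the 4 were called higher, with none at 0. Of 8 radial glia markers tested, 2 were called higher, and of 8 oligodendrocyte lineage markers tested, 2 were called lower. Summed TPM of the radial glia markers was 3068 to 3435 in WT and 3486 to 3771 in KD libraries, without overlap. For the oligodendrocyte lineage markers it was 333 to 441 in WT and 287 to 356 in KD libraries, with overlap. Of all genes tested, 12.1% were called higher and 12% lower (edgeR, adjusted p under 0.05). Summed TPM was at most 4.23 for microglia, 1.51 for endothelium, 5.71 for fibroblast and 1.07 for red blood cell markers in any library. The part of the marker shifts in the values below was not tested.

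Gdf1 and Cers1 were examined first, because their separate values depend on how reads are divided. On chromosome 8 of GRCm38, plus strand, GENCODE M21 places the transcript that RefSeq assigns to Cers1 at chr8:70315787-70331587, with 8 exons and 2711 bases. The long transcript that RefSeq assigns to Gdf1 runs from chr8:70315775-70331592 and has 2728 bases. Of these, 2711 (99.4%) are the bases of the Cers1 transcript, and only 17 are not, 12 at the 5′ end and 5 at the 3′ end. Both transcripts therefore hold the Cers1 and the Gdf1 coding sequences, of 1050 and 1071 bases. A short Gdf1 transcript (chr8:70329817-70331587, 2 exons, 1349 bases), lies wholly within exons 7 and 8 of the Cers1 transcript and carries the Gdf1 coding sequence alone. The plot of exons shows this arrangement.

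**Figure D1:**
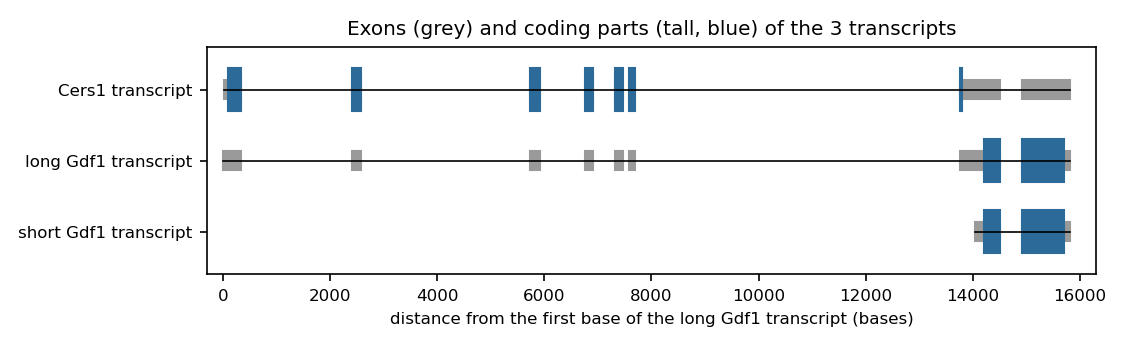
Exons of the 3 transcripts along the locus, as distance in bases from the first base of the long Gdf1 transcript (GENCODE M21); tall blue blocks are the coding parts and grey blocks the untranslated parts of exons. The Cers1 and the long Gdf1 transcript have the same 8 exons but for 17 bases at the ends, and the 1349 bases of the short Gdf1 transcript lie within the last 2 exons.

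The ends are shown because they hold the sequence by which these GENCODE M21 models of the full-length transcripts can be told apart. In capitals are the 12 and 5 bases of the long Gdf1 transcript that this Cers1 transcript lacks (GRCm38, plus strand, 5′ to 3′). RefSeq places the Cers1 gene at chr8:70315775-70331588. The 12 bases thus lie within it and do not separate the RefSeq genes.
Long Gdf1 transcript, 5′ end: TGCCTGGCTGCGgcgcgtgacgcgagggcg
Cers1 transcript, 5′ end: gcgcgtgacgcgagggcg
Long Gdf1 transcript, 3′ end: ttgactaaaaattaagttccATTGC

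The row of Gdf1 held 21.48, 0 and 62.92 estimated counts in WT libraries 1 to 3 and 667.35, 604.28 and 0 in KD libraries 1 to 3. The row of Cers1 held 1223.52, 1232 and 1107.08 counts in WT and 397.65, 435.72 and 1098 in KD libraries. KD 1 and KD 2 were thus high in Gdf1 and low in Cers1, while KD 3, at 0 and 1098 counts, lay close to the WT libraries in both rows. The groups overlapped for Gdf1 alone, and for Cers1 alone KD 3 was just below the lowest WT library. Their sum was a whole number in every library, at 1245, 1232 and 1170 counts in WT and 1065, 1040 and 1098 in KD.

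The sum varied less than its parts. Its coefficient of variation between replicates was 3.30% in WT and 2.73% in KD, against 5.88% and 61.2% for Cers1 alone. The share of the sum listed under Gdf1 was 1.73%, 0% and 5.38% in WT libraries and 62.7%, 58.1% and 0% in KD libraries. Fitted as separate rows, the log2 fold change was 3.89 for Gdf1 and -0.91 for Cers1, with the Gdf1 row of KD 3 at 0.

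The deposited FPKM values divide counts by an effective length, which can be recovered as the length that the count, the library total and the FPKM together imply. For Cers1 the implied length was 2423.7 to 2430.8 bases in the 6 libraries. For Gdf1 it was 1112.8 bases in WT 1 and 1106.4 in WT 3, but 2189.6 in KD 1 and 2430.1 in KD 2, and it is not defined at a count of 0. The Gdf1 row was thus counted at 45.8% and 45.6% of the Cers1 length in the WT libraries with counts and at 90.1% and 100.2% in KD 1 and KD 2. For the 7 members other than Gdf1 and Cers1, the implied length varied between libraries by 0.145% to 5.94% (most in Cers4). Under the assumption of only 2 lengths, the short one taken as the mean of WT 1 and WT 3 (1109.6 bases), counts of the short Gdf1 transcript came to 21.4, 0 and 62.9 in WT and 61.7, 0 and 0 in KD libraries. In WT 1 and WT 3, which set the short length, nearly the whole Gdf1 count is short by construction, and a Gdf1 count of 0 gives 0. Only the values of KD 1 and KD 2 are estimates, so no comparison between groups is drawn.

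**Figure D2:**
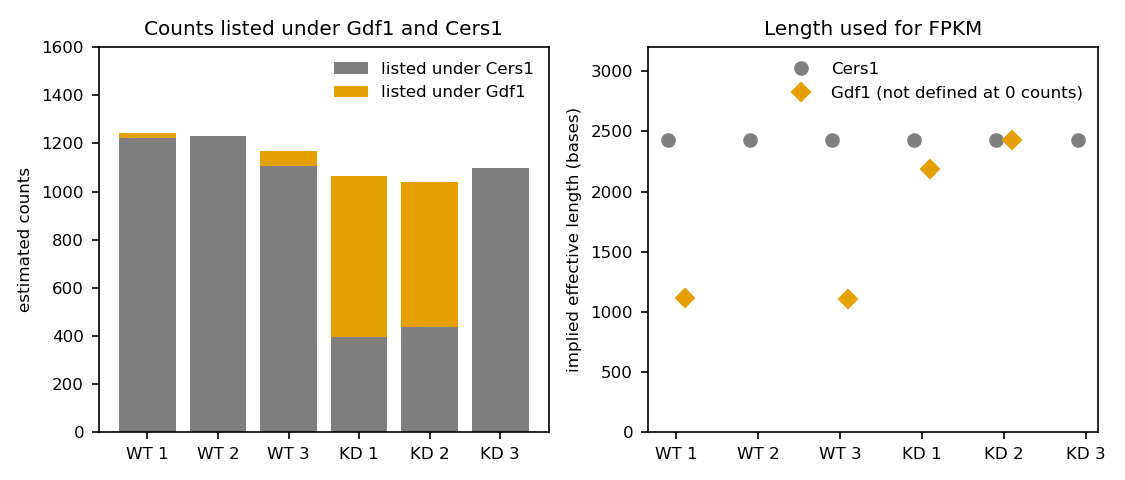
Left, estimated counts listed under Cers1 (grey) and Gdf1 (orange) in each library, stacked to their sum; right, the effective length in bases implied by count and FPKM for both rows. The sum is between 1040 and 1245 in every library, while KD 1 and KD 2 list most of it under Gdf1 at a length near that of Cers1.

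The summed Gdf1 and Cers1 count was lower in KD. In CPM (counts on a scale of 1000000 per library, with TMM scaling) it was 75.6, 76.0 and 72.9 in WT and 64.0, 63.5 and 66.6 in KD libraries. The groups did not overlap, and the mean went from 74.8 ± 1.71 to 64.7 ± 1.65 (SD, n = 3), which is 13.6% less (log2 fold change -0.21, SE 0.05). Between libraries of the same number the log2 difference was -0.24, -0.26 and -0.13. Summed TPM was also lower in KD, at 63.0, 61.4 and 64.2 in WT and 58.4, 54.3 and 55.4 in KD. Unlike the summed count, it still depends on the split, because the Gdf1 counts were divided by different lengths in different libraries. On log2(TPM + 1) the log2 fold change of the sum was smaller, at -0.16. With 1 library left out the log2 fold change of the sum lay between -0.23 and -0.20.

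Over the 8 units, 3 were past an adjusted p of 0.05 (edgeR, Benjamini-Hochberg), 1 higher in KD (Sptlc1) and 2 lower (Degs1 and the Gdf1 and Cers1 sum). Of 13668 genes tested, 24.1% were past that threshold, 12.1% higher and 12% lower, 3291 genes in all, against 5016 in a fit blocked by replicate number. The count of units was 2 without WT 1, WT 2, KD 1 or KD 2, where the sum was no longer among them. The groups did not overlap for 5 of the 8 units, 3 higher and 2 lower, and for 41.6% of all genes tested. The median log2 fold change was -0.00066 over the 8 units and -0.0014 over all genes. Because the contrast served to choose the members, these counts are no test of them and nothing is read from these shares.

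Sptlc1 and Sptlc2, the partner subunits of serine palmitoyltransferase, differed in that the groups were apart for Sptlc1 and overlapped for Sptlc2. Sptlc1 had 322, 326 and 318 counts in WT and 419, 437 and 474 in KD libraries. Every KD library was above every WT library, at 19.8 ± 0.289 CPM in WT and 26.9 ± 1.78 in KD (log2 fold change 0.44, SE 0.08). Sptlc2 had 1117, 1063 and 1191 counts in WT and 1066, 1160 and 1179 in KD libraries, and these ranges overlapped. Its mean was 69.2 ± 4.45 CPM in WT and 68.8 ± 4.08 in KD (log2 fold change -0.01, SE 0.07). The sign of this difference turned without a scaling factor (0.01) and on the TPM scale (0.04). Per length, the ratio of Sptlc2 to Sptlc1 TPM was 1.19, 1.10 and 1.26 in WT and 0.875, 0.902 and 0.860 in KD libraries. Sptlc2 was therefore the higher of the pair in each WT library and Sptlc1 the higher in each KD library.

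Degs1, which completes ceramide by desaturation, was lower in KD. It had 825, 843 and 883 counts in WT and 657, 661 and 705 in KD libraries, without overlap. The mean went from 52.4 ± 2.48 to 40.9 ± 1.68 CPM (log2 fold change -0.36, SE 0.06). Within each replicate number the log2 difference was -0.34, -0.37 and -0.36, so the libraries moved by nearly the same amount.

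Of the other ceramide synthases, Cers2 and Cers6 were slightly higher in KD, and Cers4 and Cers5 overlapped between groups. Cers2 had 908, 913 and 969 counts in WT and 1008, 1002 and 1014 in KD libraries, at 57.3 ± 2.74 and 61.1 ± 0.438 CPM (log2 fold change 0.09, SE 0.05). Cers6 had 1849, 1863 and 1854 counts in WT and 1974, 2112 and 2003 in KD libraries, at 114 ± 1.75 and 123 ± 5.28 CPM (log2 fold change 0.11, SE 0.05). Both genes were higher in every KD library than in any WT library, by 6.63% and 7.66% in the fit. For Cers2 the gap was narrow, from 60.3 CPM in WT 3 to 60.6 in KD 1. Neither gene was among the units past the threshold, and 41.6% of all genes tested did not overlap between groups.

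Cers5, which shares the palmitoyl-CoA preference of Cers6, had 748, 736 and 725 counts in WT and 728, 771 and 757 in KD libraries, and its groups overlapped. Its mean was 45.3 ± 0.152 CPM in WT and 45.6 ± 1.66 in KD (log2 fold change 0.01, SE 0.05). Of the 8 units Cers4 varied most between replicates (17.1% in WT and 14.4% in KD), with 788, 851 and 1061 counts in WT and 714, 921 and 913 in KD libraries. Its groups overlapped as well (log2 fold change -0.11, SE 0.13), and the sign turned without WT 3 (0.04) or without KD 1 (0.0086). The plot of CPM by library shows that Cers4 and Cers5 overlap between groups, as Sptlc2 does.

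**Figure D3:**
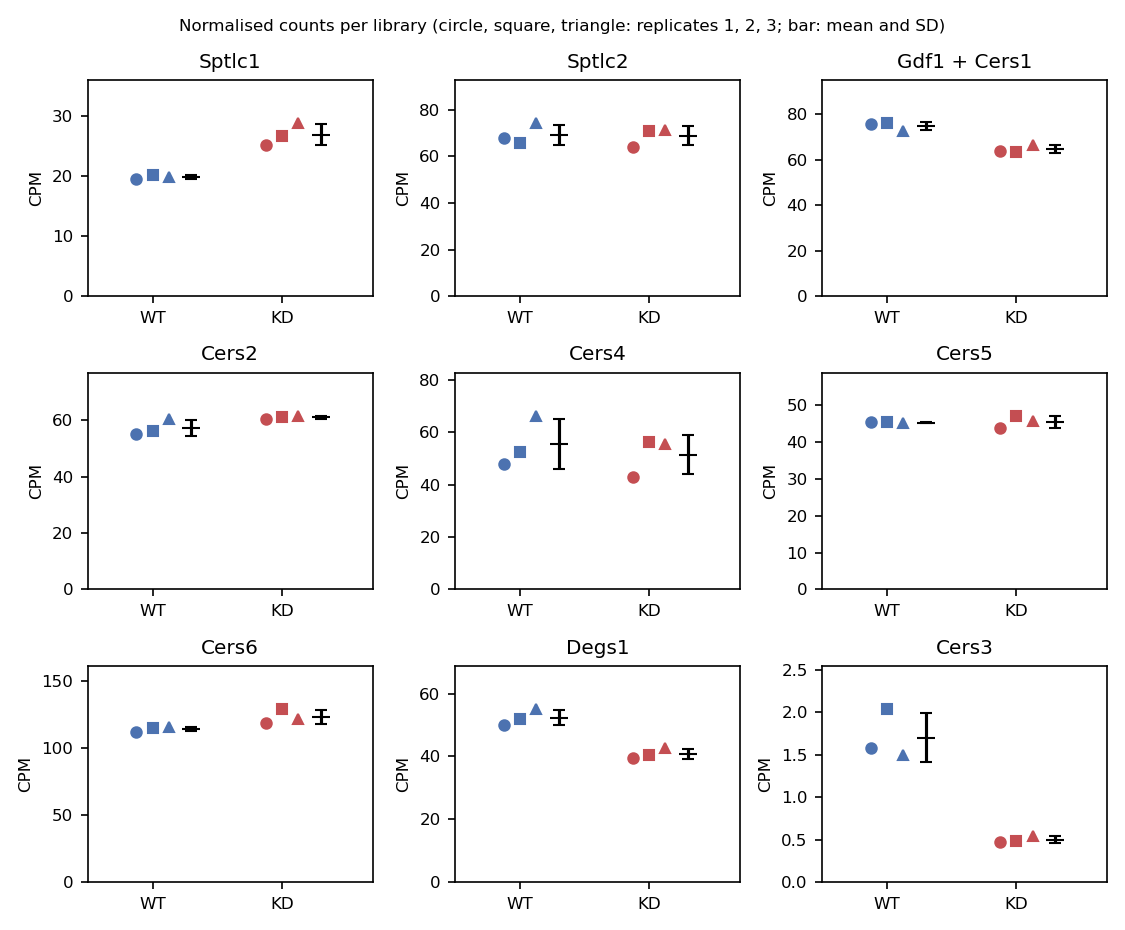
CPM with TMM scaling of the 8 units and of Cers3 in each library; circles, squares and triangles are replicates 1, 2 and 3, and the bar beside them is the mean with its SD (n = 3). Every axis starts at 0. Sptlc1, Cers2 and Cers6 lie higher and Degs1, the Gdf1 and Cers1 sum and Cers3 lower in every KD library, while Sptlc2, Cers4 and Cers5 overlap.

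Levels were compared between genes only as TPM. In WT libraries Degs1 (66.7 ± 3.81), Cers2 (63.1 ± 3.73) and the Gdf1 and Cers1 sum (62.9 ± 1.42) were the highest, and neighbours among them overlapped. Cers5 (52.5 ± 0.520) and Cers6 (33.5 ± 0.742) followed, each apart from its neighbours. Cers4 (24.5 ± 4.78) and Sptlc2 (21.4 ± 1.65) overlapped, and Sptlc1 (18.1 ± 0.437) was the lowest. In KD libraries Cers2 stood alone at the top (69.6 ± 0.850). The sum (56.0 ± 2.14), Cers5 (54.7 ± 2.16) and Degs1 (54.0 ± 1.42) overlapped in turn, followed by Cers6 (37.4 ± 1.91). Sptlc1 (25.1 ± 1.27), Cers4 (23.6 ± 2.93) and Sptlc2 (22.1 ± 1.17) also overlapped in turn.

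The total TPM of the ceramide synthases, with Cers3 and the Gdf1 and Cers1 sum included, was 238 ± 10.6 in WT and 242 ± 5.38 in KD. The Gdf1 and Cers1 sum made up 26.5% ± 0.806 of it in WT and 23.2% ± 1.33 in KD. Cers2 made up 26.5% ± 0.382 and 28.8% ± 0.385, Cers6 14.1% ± 0.320 and 15.5% ± 0.450. The shares of these 3 did not overlap between groups. The share of Cers5 was 22.1% ± 0.804 in WT and 22.6% ± 0.399 in KD, and that of Cers4 10.3% ± 1.54 and 9.77% ± 1.05, both with overlap. Shares sum to the whole, so a lower share of one gene raises the others.

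Cers3, the ceramide synthase known from skin and testis, was the lowest paralog in both groups and had the largest log2 fold change of the ceramide synthases. It had 26, 33 and 24 counts in WT and 8, 8 and 9 in KD libraries, and fell by 1.74 on the log2 scale (SE 0.27, adjusted p = 0.0032). Its KD counts lay below the filter's minimum count of 10, so the filter kept Cers3 through its WT libraries. A gene kept in this way can be called lower but not higher. Without the filter the log2 fold change was -1.73 (edgeR, adjusted p = 0.0024). Cers3 was called in each of 12 alternatives, which reuse the same libraries, and DESeq2 gave no adjusted p for it. On log2(TPM + 1) the fall was 0.66, since the pseudocount is close to its level of 1.14 TPM in WT. Its share of ceramide synthase TPM was 0.482% in WT and 0.145% in KD.

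Of 57 other sphingolipid genes tested, 2 were higher and 19 lower in KD (edgeR, Benjamini-Hochberg). That is 36.8% in all and 33.3% lower, against 24.1% and 12% of all genes. The median log2 fold change was -0.16 on the list and -0.0014 over all genes. The remaining 8 of the 65 genes on the list were below the filter on low counts. The number called was 10 without WT 2, 11 without KD 1 and 11 without KD 2, of which 9, 10 and 10 were lower. On the TPM scale 15 were called, 13 of them lower, and the list median was -0.10, where the median of all genes was 0.05.

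In de novo synthesis outside the members, 3 of 8 genes tested were lower and none higher. The share was 37.5%, against 24.1% of all genes called and 12% lower. Besides Cers3 the lower genes were Fads3, a desaturase that acts on sphingoid bases (log2 fold change -0.43, SE 0.08, adjusted p = 0.0055), and Ormdl3, which restrains serine palmitoyltransferase (-0.26, SE 0.07, adjusted p = 0.033). Fads3 had 1178, 1227 and 1139 counts in WT and 810, 874 and 990 in KD libraries. The Ormdl3 call was lost without any of WT 1, WT 2, KD 1, KD 2 and KD 3, with adjusted p between 0.061 and 0.12, and also without a scaling factor (0.0502) and on log2(TPM + 1) (0.072). The related Ormdl1 (-0.09, SE 0.12, adjusted p = 0.60) and Ormdl2 (-0.21, SE 0.22, adjusted p = 0.53) were not called. Nor were the small subunit Sptssa (-0.17, SE 0.07, adjusted p = 0.12), the reductase Kdsr (0.03, SE 0.08, adjusted p = 0.82) and the second desaturase Degs2 (-0.19, SE 0.13, adjusted p = 0.30). Sptlc3, the alternative catalytic subunit, had 2 counts in WT 1 and 0 in the other libraries, and Sptssb 4 to 12 counts, so both were below the filter.

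Ceramide transfer and conversion held the most calls, with 7 of 15 genes lower and none higher. The share was 46.7%, against 24.1% of all genes called and 12% lower. Gal3st1, which makes sulfatide, had 26, 31 and 28 counts in WT and 13, 12 and 17 in KD libraries (log2 fold change -1.03, SE 0.24, adjusted p = 0.017). The others named are enzymes of ganglioside synthesis: B3galt4 (-0.60, SE 0.15, adjusted p = 0.021), B4galnt1 (-0.43, SE 0.07, adjusted p = 0.0039) and B4galt6, a lactosylceramide synthase (-0.41, SE 0.06, adjusted p = 0.0026). B4galnt1 and B4galt6 were called in each of 13 alternatives. The Gal3st1 call was lost without WT 2, KD 1 or KD 2 (adjusted p 0.055 to 0.067) and that of B3galt4 without WT 1, WT 2, KD 1 or KD 3 (adjusted p 0.058 to 0.069).

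Of 12 genes tested that break sphingolipids down to ceramide and sphingosine, 5 were lower and none higher. The share was 41.7%, against 24.1% of all genes called and 12% lower. Smpd3, a neutral sphingomyelinase, had 4405, 4326 and 4341 counts in WT and 3078, 3363 and 3541 in KD libraries (log2 fold change -0.41, SE 0.06, adjusted p = 0.0020). It was called in each of 13 alternatives. The acid sphingomyelinase Smpd1 (-0.22, SE 0.07, adjusted p = 0.047) and the galactosylceramidase Galc (-0.21, SE 0.06, adjusted p = 0.045) were close to the threshold. Smpd1 was not called without WT 1, WT 2, KD 1 or KD 2 (adjusted p 0.12 to 0.15), and Galc not without WT 2, WT 3, KD 1, KD 2 or KD 3 (adjusted p 0.090 to 0.14). Both calls were also lost without a scaling factor (0.065 and 0.060), without the filter (0.052 and 0.065) and on log2(TPM + 1) (0.077 and 0.26), and that of Galc with DESeq2 (0.13).

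Among 12 genes tested that elongate fatty acyl-CoA, the second substrate of the ceramide synthases, 3 were lower and none higher. The share called, 25%, was close to the 24.1% of all genes, of which 12% were lower. The lower ones were the elongation cycle enzymes Hsd17b12 (-0.32, SE 0.08, adjusted p = 0.018), Elovl6 (-0.18, SE 0.05, adjusted p = 0.037) and Tecr (-0.15, SE 0.05, adjusted p = 0.044). Each of these calls was lost without WT 1, WT 2, KD 1 or KD 2, with adjusted p between 0.0502 and 0.15. Those of Elovl6 and Tecr were also lost without a scaling factor (0.057 and 0.075) and on log2(TPM + 1) (0.11 and 0.13), and that of Tecr without the filter (0.063).

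In the sphingosine 1-phosphate group, 2 of 10 genes tested were higher and 1 lower, and all 3 are receptors of this signalling lipid. The share called was 30%, against 24.1% of all genes. S1pr1 had 414, 439 and 650 counts in WT and 1037, 869 and 1015 in KD libraries, for a log2 difference of 0.93 (SE 0.16, adjusted p = 0.0043). S1pr3 was also higher (0.55, SE 0.15, adjusted p = 0.028) and S1pr5 lower (0.499 of the WT level, adjusted p = 0.026), both at low levels of 2.76 and 0.920 TPM in KD. S1pr1 was called in each of 13 alternatives. The call of S1pr3 was lost without any library but WT 3 (adjusted p 0.056 to 0.093), and that of S1pr5 without WT 1, WT 2, KD 1 or KD 2 (adjusted p 0.0502 to 0.094). With DESeq2 neither was called (adjusted p = 0.074 and 0.071). On log2(TPM + 1) the fall of S1pr5 was 0.55.

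**Figure D4:**
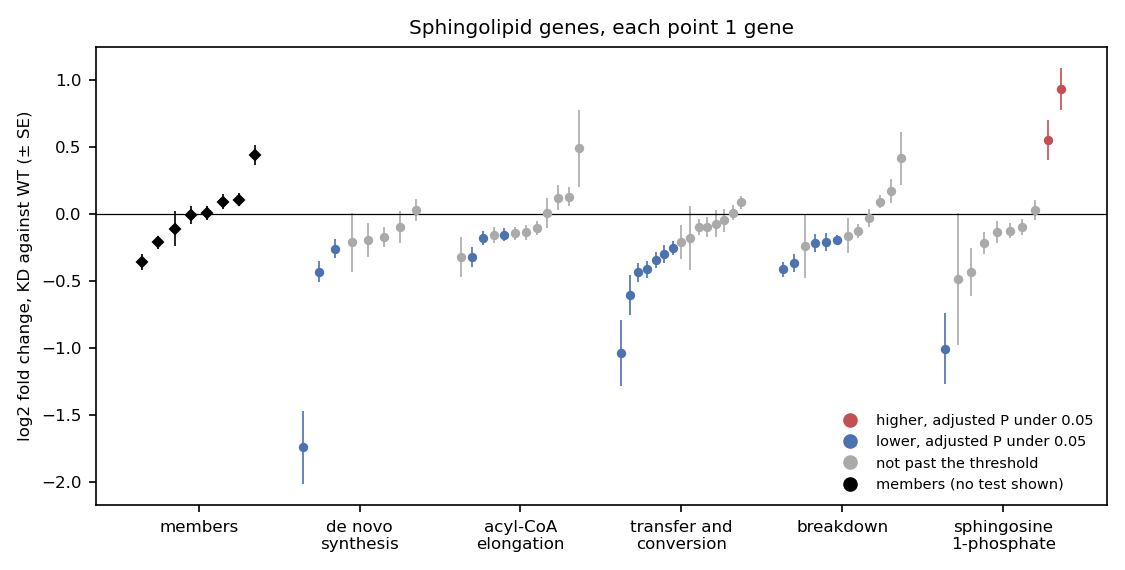
Log2 fold change of KD against WT with its SE (n = 3 libraries per group) for the 8 units (black, no test shown) and for 57 other sphingolipid genes by group; red and blue are genes past an adjusted p of 0.05 in edgeR, higher or lower, and grey the rest. Of the 57, 19 are blue and 2 red, the red ones both sphingosine 1-phosphate receptors, and the lowest point is Cers3.

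The partners of Gdf1 in signalling were mostly low or not called. Of 17 genes of the Nodal and Gdf1 pathway, Gdf3 and Tdgf1 were not among the rows used, 4 were below the filter and 11 were tested. Of these 11, 2 were higher and none lower, which is 18.2% called, against 24.1% of all genes tested. Nodal itself had between 1 and 5 counts per library. The type I receptor Tgfbr1 had 390, 369 and 463 counts in WT and 731, 691 and 717 in KD libraries (log2 fold change 0.78, SE 0.09, adjusted p = 0.00086). The mediator Smad2 was higher as well (0.27, SE 0.05, adjusted p = 0.0083). Both serve several TGF-beta ligands, and both were called in each of 13 alternatives. Once replicate number was a block, 4 of the 11 were called, all higher.

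Of the 10 genes next to the locus, 5 on each side, 2 were higher, 2 lower and 6 not called, where 24.1% of all genes were called. Their median log2 fold change was -0.04. The closest, Upf1, a helicase of nonsense-mediated decay, runs on the opposite strand and overlaps the 3′ end of Gdf1 and Cers1. It had 1197, 1199 and 1187 counts in WT and 1615, 1433 and 1509 in KD libraries (log2 fold change 0.32, SE 0.05, adjusted p = 0.0041), opposite in sign to the Gdf1 and Cers1 sum. Whether counting used strand is not given in the sources used here, so reads in the overlap cannot be assigned with certainty. The counts of Upf1 and of the Gdf1 and Cers1 sum were whole numbers in every library, so no read was listed as divided between them.

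On the 5′ side Cope, a coatomer subunit, was higher (0.15, SE 0.05, adjusted p = 0.048) and Armc6 lower (-0.36, SE 0.08, adjusted p = 0.013). On the 3′ side the transcription coactivator Crtc1 was lower (-0.19, SE 0.05, adjusted p = 0.021). The number called was 2 without WT 1, KD 1 or KD 3 and 1 without WT 2. Upf1 was called in each of 13 alternatives. The Cope call was lost without any single library (adjusted p 0.068 to 0.14), that of Crtc1 without WT 1, WT 2, KD 1 or KD 3 (adjusted p 0.052 to 0.069) and that of Armc6 without WT 2 (adjusted p = 0.053). Cope was also not called with DESeq2 (0.15) or without the filter (0.062), nor Crtc1 on log2(TPM + 1) (0.090).
Among those not called were Sugp2 (log2 fold change 0.05, adjusted p = 0.48), Homer3 (0.07, 0.56), Ddx49 (-0.15, 0.18), Klhl26 (-0.12, 0.20) and Tmem59l (-0.24, 0.061). In the blocked fit 6 neighbours were called, among them Tmem59l (-0.24, adjusted p = 0.0093).

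The genes most like the Gdf1 and Cers1 sum over the 6 libraries were Mindy2, Zfp53, Atp6ap1, P4hb and Arrdc1. Likeness was the root mean square difference of log2 CPM, each gene centred on its own mean, over 13130 genes of at least 1 CPM. It was 0.0094 for Mindy2, 0.011 for Zfp53, 0.013 for Atp6ap1, 0.013 for P4hb and 0.016 for Arrdc1, against 0.168 for the median gene. The sum itself deviated by 0.11 from its mean. Their own log2 fold changes lay between -0.22 and -0.19. Since the measure includes the difference between groups, values near that of the sum follow from how these genes were picked.

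Ybx1 takes its name from the Y box, an element with the letters CCAAT. The promoters of both serine palmitoyltransferase subunits and of the Cers1 locus are shown for that reason (RefSeq, GRCm38, 250 bases before the start, 5′ to 3′ on the gene's strand), with CCAAT or its reverse complement ATTGG in capitals. The windows of Cers1 and of the first Gdf1 start are identical. The Sptlc1 window reaches into the gene, which RefSeq places at chr13:53332748-53377417, while those of Sptlc2 and Cers1 stop at the gene's outer end.
Sptlc1 (chr13:53377362-53377611, minus strand): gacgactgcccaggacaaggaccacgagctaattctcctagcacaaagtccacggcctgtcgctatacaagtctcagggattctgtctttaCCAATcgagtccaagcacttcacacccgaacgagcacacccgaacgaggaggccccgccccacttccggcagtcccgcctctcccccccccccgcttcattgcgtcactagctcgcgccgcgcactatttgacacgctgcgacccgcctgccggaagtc
Sptlc2 (chr12:87388356-87388605, minus strand): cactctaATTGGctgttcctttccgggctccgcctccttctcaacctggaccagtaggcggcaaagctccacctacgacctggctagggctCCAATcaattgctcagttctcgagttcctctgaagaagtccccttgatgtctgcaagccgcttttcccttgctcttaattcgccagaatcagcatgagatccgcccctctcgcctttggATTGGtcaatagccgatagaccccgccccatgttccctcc
Cers1 and Gdf1 (chr8:70315525-70315774, plus strand): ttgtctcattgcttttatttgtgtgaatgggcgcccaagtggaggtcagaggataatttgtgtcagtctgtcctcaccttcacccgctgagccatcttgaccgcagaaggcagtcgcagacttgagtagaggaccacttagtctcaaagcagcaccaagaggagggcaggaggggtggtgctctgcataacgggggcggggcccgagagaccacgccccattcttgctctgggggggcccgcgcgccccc

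Sptlc1, which was higher in KD, held 1 match and Sptlc2, which overlapped between groups, held 3, while the Cers1 window held 0. Counted on both strands over 300 bases (250 before and 50 after the start), 4 of 11 windows of the 9 members (36.4%) held the letters, those of Sptlc1, Sptlc2, Cers2 and Cers6, against 37.4% of all 32851 windows. The window that Cers1 and Gdf1 share, without a match, was counted under both genes. A match describes letters only, and binding was not measured.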

How the data were processed

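The submitters' processing notes name HISAT2 2.2.1, Bowtie2 2.4.5, RSEM 1.3.1 and the builds GRCm38 and mm10, and the methods name mRNA libraries sequenced on DNBSEQ. The annotation and strand setting are not given in the sources used here. The deposited table holds, per library, estimated counts as made by the authors (89.3% to 89.9% whole numbers), TPM and FPKM. The 6 columns of group averages were not used. The control columns, named Ctrl, were matched to the WT titles by number.

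The authors' estimated counts were rounded, and Gdf1 and Cers1 were summed. The test was that of edgeR 4.0.16 under R 4.3.3 (TMM, filterByExpr with a minimum count of 10, quasi-likelihood F-test). P values were adjusted by Benjamini-Hochberg over 13668 genes, with a threshold of 0.05. SE is the size of the log2 fold change over the square root of F. The test had been planned for whole counts and was kept for estimated ones. The between-library coefficient of variation was 7.64%. Replicates are described as independent, and p-values measure only the spread between 3 libraries per group. Deviations from the group mean of same-numbered WT and KD libraries correlated at 0.351, 0.347 and 0.216. Those of different numbers correlated at -0.262 to -0.0605, but centring on the group mean tends to make them negative where same-numbered ones are positive. Same-numbered libraries thus resemble one another, which the main fit does not use and the replicate block does. The series text speaks of 3 sequencing batches.

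Alternatives were RLE or no scaling, no filter, DESeq2 1.42.0, limma-trend (limma 3.58.1) on log2 of the deposited TPM + 1, the replicate block, separate Gdf1 and Cers1 rows, and leaving out each library. The deposited FPKM served only to recover lengths. Members and gene lists were chosen with earlier results of these data known. Named genes were the members, Ybx1, Cers3, Sptlc3, Degs2, Sptssa, Ormdl1, Ormdl2, Ormdl3, Kdsr, up to 4 called genes per list group and direction by size of change (mean of at least 1 CPM), the 10 neighbours and the 5 genes most like the sum; some genes the rule names are not reported here. Nodal, Sptssb and the genes of the closing observation were named after their values were seen. The script was tested on simulated data.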

Additional observations from a re-analysis of the deposited data

How the results depend on the processing

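Of 13 alternatives, each kept 2 or 3 members past the threshold, and the Gdf1 and Cers1 sum stayed between -0.23 and -0.16 in the 12 that hold it, and between -0.23 and -0.20 with 1 library left out. With the replicate block its log2 fold change was -0.21. The block raised the genes called from 3291 to 5016, the sphingolipid genes from 21 to 25, the neighbours from 4 to 6 and the Nodal and Gdf1 pathway genes from 2 to 4. Of the genes named, it added the call of Tmem59l. It kept every named call outside the members that other alternatives lost, at adjusted p from 0.00024 (Armc6) to 0.038 (Cope) in edgeR. Without a scaling factor 4 Nodal and Gdf1 pathway genes were called. With 1 library left out, 1604 to 3196 genes, 10 to 21 sphingolipid genes, 1 to 4 neighbours and 2 to 3 pathway genes were called. On log2(TPM + 1), 2080 genes were higher and 1074 lower (65.9% higher), against 1656 and 1635 (50.3%), and the median of all genes was 0.05. Signs turned in 4 genes named, none of them called in either fit. Sptlc2 was at 0.013 without a scaling factor, 0.041 on log2(TPM + 1) and -0.046 to 0.044 with 1 library left out. With 1 library left out, Cers4 lay between -0.20 and 0.037, Cers5 between -0.016 and 0.036 and Kdsr between -0.017 and 0.079. DESeq2 gave no adjusted p for Cers3 and Gal3st1. The counts of 8 or 9 for Cers3 in KD limit the precision of its fold change.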

Other observations

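A swing from 0 to at least 100 estimated counts between replicates of a group was seen in 6 of 17920 genes, 3 in WT and 3 in KD, and all 6 had fractional counts. Gdf1 in KD reached the highest value. The others were 2210418O10Rik (0, 174.71 and 440.6 counts in WT 1 to 3), Zfp967 (0, 286.07 and 290.4 in WT), Fam205a3 (210.28, 35.27 and 0 in WT), Entpd4 (0, 53.08 and 211.89 in KD) and Fam205a4 (142.89, 98.49 and 0 in KD).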
